A study of Homo sapiens with 18 samples.

Results

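Readthrough genes are loci that a gene catalogue lists under a joined name, X-Y, because transcripts have been found that start at the gene X, run through its end and are spliced into its downstream neighbour Y. Normally the 3' end of X is cut behind its poly-A signal, the exonuclease XRN2 then chases the polymerase, and transcription stops before the next gene. A transcript that escapes this step joins exons of both genes, and many such joined transcripts carry an early stop codon that makes them candidates for nonsense-mediated decay. The members were chosen by name alone: every row of the gene table whose symbol has the form X-Y, where X and Y are each the symbol of another gene in the RefSeq table. This gave 103 readthrough genes of 23604 listed genes. A row exists for the upstream gene X of 98 of them and for the downstream gene Y of 94. RefSeq classes 56 of the 103 as protein coding, 42 as lncRNA and 5 as transcribed pseudogenes.

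The cells were MCF10A-ErSrc, a human breast epithelial line that carries v-Src fused to the ligand-binding part of the oestrogen receptor, so that tamoxifen switches the oncogene on. All 4 groups carry the fusion. Cells without tamoxifen are NT, and those transformed by 2 uM tamoxifen are TAM. Both were then kept in the solvent DMSO (the groups NT and TAM) or in triptolide for 4 h (NT+TPL and TAM+TPL). Triptolide (TPL) binds XPB, the DNA translocase of the initiation factor TFIIH, and blocks the start of RNA polymerase II (RNAPII) transcription. Poly-A RNA was sequenced in 2 libraries per group, described as biological replicates, and RNAPII ChIP-seq gave 1 list of peaks per condition. The question put to the members was whether the transcripts named X-Y changed with TPL or with transformation, and whether X and Y did the same.

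The 8 libraries held between 7461309 and 8349448 expected counts, and no library stood apart in depth. Keratin 5 and keratin 17, which mark basal mammary epithelium, had a mean of 6013 and 6714 FPKM (fragments scaled to transcript length and library size) in NT and 1308 and 1481 FPKM in TAM. Both fell with transformation, keratin 5 (KRT5) by 2.18 on the log2 scale (SE 0.14, adjusted p = 0.000366) and keratin 17 (KRT17) by 2.17 (SE 0.15, adjusted p = 0.000504). The other basal markers were mixed between TAM and NT. KRT14 (-1.74), CDH1 (-1.41) and ITGB4 (-0.66) were lower, and LAMB3 (0.70), TP63 (0.36) and KRT6A (0.12) were higher. Of these only KRT14 reached an adjusted p of 0.05. The 4 fibroblast markers together reached between 0.56 and 6.14 FPKM. COL3A1 (mean of 0.0 FPKM in both NT groups) and CD3E (at most 0.085 FPKM in any group mean) were at or near 0, PECAM1 lay between 0.46 and 1.69 FPKM, and the 3 leukocyte markers summed to between 7.19 and 19.9 FPKM, mostly CD14. All 8 basal markers were listed, at summed levels of 4120 to 19000 FPKM. With TPL 1 was higher (ITGB4) and 5 lower at an adjusted p of 0.05 in NT cells, and 0 higher and 4 lower in TAM cells. The call was passed by TP63 and LAMB3, both lower, in NT cells and by TP63 and KRT5, both lower, in TAM cells. The part of these markers in the results below was not tested.

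Most readthrough transcripts differ from both neighbours in little more than the junction that joins them. Each line gives 15 bases on either side of an exon junction, on build GRCh37, from GENCODE transcripts. Capitals mark the exon of Y that the joined transcript enters, and all other bases are in lower case. For the locus on chromosome 19, plus strand, that the results turn on, MIA's own junction leaves from the same base and RAB4B's own junction arrives at the same base, so all 3 are shown.
MIA own junction, bases 41282984 to 41283302: gatgtgaagacagacaaatgggatttctac
MIA-RAB4B, bases 41282984 to 41285924: gatgtgaagacagacACTTCCTCTTCAAAT
RAB4B own junction, bases 41284296 to 41285924: tggctgagacctacgACTTCCTCTTCAAAT

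The next lines are the joining sequences of further loci whose rows are described below, with the exon of X in lower case and that of Y in capitals.
PPAN-P2RY11, chromosome 19, plus strand, bases 10221698 to 10224309: gggaaatggatcgagGTGCCAAGTCCTGCC
INO80B-WBP1, chromosome 2, plus strand, bases 74684987 to 74686770: cccccttttggctacCTTCGAGAGCTGTGC
NDUFC2-KCTD14, chromosome 11, minus strand, bases 77784044 to 77749804: attttcctgaagaagGGGGTGACATTGGCC
ISY1-RAB43, chromosome 3, minus strand, bases 128848931 to 128814012: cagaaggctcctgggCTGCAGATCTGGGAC
SPECC1L-ADORA2A, chromosome 22, plus strand, bases 24810712 to 24829099: gctgccccacagcgtGTGCCTCAGGAACCC
MICOS10-NBL1, chromosome 1, plus strand, bases 19927465 to 19981505: tgcacagcaacttctGGCTCTGGAGGCCAC
BCL2L2-PABPN1, chromosome 14, plus strand, bases 23777408 to 23791390: agcagtgggggctggGAGCTGGAAGCTATC

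In the joined MIA-RAB4B transcript, 1809 bases long, 1760 windows of 50 bases can be read. Of these, 49 occurred in no transcript of MIA or RAB4B, as many as can cross a single junction. Over the 93 readthrough genes with a GENCODE transcript, a median of 5.23% of windows were in neither neighbour, and in 68 of the 93 the share was under 10%. A median of 57.2% of windows were shared with Y and 28.9% with X. GENCODE tags 83 of these 93 as readthrough genes, and an exon junction that joins X to Y was found in 80. Where that junction is in the canonical transcript (71 genes), 44 of the transcripts are protein coding and 22 are annotated as substrates of nonsense-mediated decay, MIA-RAB4B, INO80B-WBP1, SPECC1L-ADORA2A, MICOS10-NBL1 and RTEL1-TNFRSF6B among them.

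Of 102 members whose neighbours could both be placed, 101 had them on 1 chromosome, and all 101 pairs lay on the same strand. The exception was BORCS7-ASMT, which meets the rule by its name although ASMT lies on another chromosome. ASMT was left out of the neighbour rows and of the shares of locus counts. It stayed in the shared windows, in the summed locus and among the downstream starts. The annotated genes overlapped in 12 pairs, and the median gap between the others was 6052 bases. The readthrough gene started within 500 bases of the start of X in 69 of 93 cases, and within 500 bases of the start of Y in 1.

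The levels below are therefore allocations. The software that made the table, RSEM, divides a read that matches several transcripts among their rows in proportion to the estimated levels. Of 532 values in which a readthrough row had a fractional count, 267 (50.2%) came to a whole number, within 0.02 counts, once the counts of X-Y, X and Y in that library were added up. Replicates of a row could also differ widely, and whether the division of reads was the cause was not tested. In 33 of the 84 readthrough genes with at least 10 counts in some library, a group had 1 library at exactly 0 and the other at 10 counts or more, which is 39.3%. The same happened in 8.25% of all 17999 genes with that many counts, in 5.62% of the upstream neighbours and in 19.5% of the downstream neighbours. At mean counts between 10 and 200, the shares were 39.1% of 46 readthrough genes and 9.26% of 9235 genes in all.

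Readthrough rows were a small and steady part of the libraries. They summed to between 9081.5 and 10210.0 counts, or 0.113% to 0.136% of a library. Between 65 and 71 of the 103 were listed above 0 in the DMSO libraries, and between 71 and 79 in the TPL libraries. That is 63.1% to 68.9% against 68.9% to 76.7%, while over all genes the listed share was 78.3% to 78.7% with DMSO and 83.0% to 85.4% with TPL. A total of 36 members (35.0%) were above 0 in all 8 libraries, beside 65.3% of all genes. Another 13 (12.6%) were above 0 in TPL libraries only and 4 (3.88%) in DMSO libraries only, beside 9.91% and 3.47% of all genes. The median of the members' mean levels was 0.815 FPKM, 47 reached a mean of 1 FPKM and 13 a mean of 10. Of the counts assigned to a locus (X-Y, X and Y together), the readthrough row held a median of 8.23% (NT), 8.99% (NT+TPL), 4.88% (TAM) and 8.14% (TAM+TPL), over 94 members with both neighbours. With the counts of all loci pooled, the share was 12.1% and 12.6% (NT), 11.5% and 10.1% (NT+TPL), 9.8% and 9.74% (TAM) and 8.7% and 8.78% (TAM+TPL). The pooled share was thus lower with TPL in each cell state, whereas the median was higher.

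The highest readthrough row was BCL2L2-PABPN1, which joins the gene of the anti-apoptotic protein BCL-w to that of the nuclear poly-A binding protein. It was at 68.94 and 47.39 FPKM (NT), 56.13 and 75.09 (NT+TPL), 51.03 and 57.04 (TAM) and 47.2 and 39.87 (TAM+TPL). The NT and NT+TPL libraries overlapped, whereas both TAM+TPL libraries were below both TAM libraries. The fitted log2 difference with TPL was 0.17 (SE 0.24) in NT cells and -0.36 (SE 0.24) in TAM cells, with edgeR adjusted p of 0.597 and 0.285. It held between 46.32% and 70.46% of the counts of its locus, more than either neighbour in every library. BCL2L2 itself was at 3.48 to 6.66 FPKM and PABPN1 at 13.74 to 26.39 FPKM. PABPN1 was the only part of this locus to reach an adjusted p of 0.05 in either cell state, at 0.76 (SE 0.18, adjusted p = 0.018) in TAM cells.

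**Figure D1:**
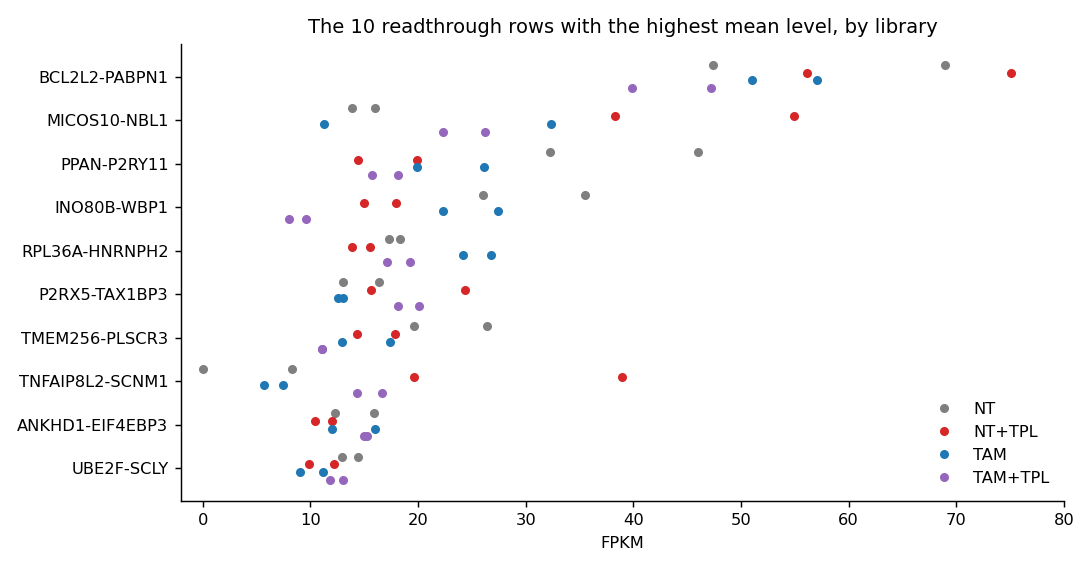
FPKM (horizontal axis) of the 10 readthrough rows with the highest mean, with a point for each of the 8 libraries coloured by group. PPAN-P2RY11 and INO80B-WBP1 are lower in both NT+TPL libraries than in both NT libraries, and TNFAIP8L2-SCNM1 is at 0 in 1 NT library and at 38.95 in an NT+TPL library.

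Of the 103 members, 72 passed the filter on low counts and were tested with edgeR's quasi-likelihood method among 16948 genes. The highest mean level of a member that was not tested was 0.627 FPKM. To be called, a gene had to reach 0.001 in its adjusted p and 1.2 in its log2 difference, which are the thresholds of the study. In NT cells 0 of the 72 passed, where 3.93% of all genes did (1.22% higher, 2.71% lower). An unadjusted p under 0.05 was reached by 16 members (8 higher and 8 lower, 22.2% of those tested) and by 47.8% of all genes. DESeq2 called 3 higher and 3 lower, and limma 1 higher (0 without the filter on low values). The shares of all genes given here and below are edgeR's. No such share is given for DESeq2 or limma, so their counts of members have no background beside them. In TAM cells 2 of the 72 rose with TPL, MIA-RAB4B and PDXDC2P-NPIPB14P, where 0.844% of all genes were called higher and 2.88% were called in all. None was called lower by edgeR, where 2.04% of all genes were. Of 17 members with an unadjusted p under 0.05 (45.1% of all genes), 8 were lower, and DESeq2 called 3 of the 72 lower and limma 0. The readthrough rows had a wide error: their median SE was 0.91 in NT cells and 0.932 in TAM cells, where the median over all genes was 0.301 and 0.3. Their median log2 difference was -0.0197 and 0.0856, beside 0.0864 and 0.0484 over all genes. Because each library was scaled to its own total, less RNA per cell and fewer cells cannot be told apart from these values.

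MIA-RAB4B (chromosome 19, 41277553 to 41302848, plus strand) joins MIA, which encodes a small secreted protein of cartilage and melanoma, to RAB4B, a GTPase of endosome recycling. Its row was at 0.32 and 0.62 FPKM (NT), 8.27 and 6.16 (NT+TPL), 0.0 and 0.0 (TAM) and 7.78 and 8.69 (TAM+TPL). All 4 TPL libraries were thus above all 4 DMSO libraries, and no read was assigned to this row in the 2 TAM libraries. In TAM cells its assigned counts were 30.7-fold higher with TPL, set against a floor of 3 counts per library, and edgeR's adjusted p was 0.000592. That floor covers counting only, since reads shared with RAB4B may have been assigned to its row. The row of MIA was listed at 0 in both TAM libraries as well. In NT cells the log2 difference of MIA-RAB4B was 3.84 (SE 0.43), at an adjusted p of 0.00183 that missed the threshold. The difference between the cell states had an adjusted p of 0.131. With both TAM libraries at 0, the fitted log2 differences of this row in TAM cells depend on the prior count.

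The call in TAM cells was lost when any library but NT+TPL replicate 2 was left out. The adjusted p was then 0.00193 without NT replicate 1, 0.00195 without NT replicate 2, 0.00107 without NT+TPL replicate 1, 0.00504 without TAM replicate 1, 0.00494 without TAM replicate 2, 0.00753 without TAM+TPL replicate 1 and 0.0074 without TAM+TPL replicate 2, at fitted log2 differences of 9.43 to 9.58.

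The neighbours did not pass the call. MIA was listed at 0 in the 4 DMSO libraries and at 0.42, 0.7, 0.68 and 0.58 FPKM in the TPL libraries, which is 1.63 to 3.32 counts and too few to be tested. RAB4B was at 3.99 and 4.79 FPKM (NT), 11.79 and 10.03 (NT+TPL), 5.64 and 5.76 (TAM) and 10.26 and 5.04 (TAM+TPL). Its log2 difference was 1.31 (SE 0.37, adjusted p = 0.0321) in NT cells and 0.37 (SE 0.37, adjusted p = 0.461) in TAM cells, where the libraries overlapped. The 3 rows together held 42.0 and 53.0 counts (NT), 197.0 and 158.0 (NT+TPL), 56.0 and 57.0 (TAM) and 174.99 and 149.45 (TAM+TPL). Of these the joined row had 8.595% and 13.21% (NT), 44.63% and 40.87% (NT+TPL), 0.0% in both TAM libraries and 46.08% and 65.72% (TAM+TPL). The share was higher in every TPL library than in any DMSO library. Fitted as 1 row that also holds RAB4B-EGLN2 and EGLN2, the locus differed by 0.03 (SE 0.17, adjusted p = 0.909) in NT cells and by 0.14 (SE 0.17, adjusted p = 0.547) after transformation. The next gene, EGLN2, an oxygen-sensing prolyl hydroxylase, was lower with TPL, by a fitted -0.97 (SE 0.20, adjusted p = 0.0105) before and -0.65 (SE 0.20, adjusted p = 0.0458) after transformation, and RAB4B-EGLN2 was above 0 in 1 library alone, at 0.68 FPKM in TAM+TPL replicate 2. No RNAPII peak was listed at the start of MIA-RAB4B or of MIA in any condition. At the start of RAB4B a peak was listed in NT+TPL only (chromosome 19, 41283954 to 41284291).

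PDXDC2P-NPIPB14P (chromosome 16, 70010200 to 70099851, minus strand) joins a pair of transcribed pseudogenes. It was at 7.27 and 7.1 FPKM (NT), 15.22 and 15.95 (NT+TPL), 5.27 and 4.73 (TAM) and 20.0 and 18.22 (TAM+TPL). The replicates lay close together and all TPL libraries were above all DMSO libraries. The log2 difference was 1.89 (SE 0.14, adjusted p = 0.000392) in TAM cells and 1.11 (SE 0.14, adjusted p = 0.00157) in NT cells, and the difference between the cell states had an adjusted p of 0.249. Neither pseudogene has a row of its own, and 51.7% of the windows of the joined transcript were in neither. Near-identical copies exist in the PDXDC1 and NPIP families, so reads may have been shared with those and the level is uncertain. The call in TAM cells was kept without either NT+TPL library and lost without any other. The adjusted p was then 0.00174 without NT replicate 1, 0.00177 without NT replicate 2, 0.00547 without TAM replicate 1, 0.00581 without TAM replicate 2, 0.00647 without TAM+TPL replicate 1 and 0.00494 without TAM+TPL replicate 2. With GAPDH as the reference it was 0.00117. A peak covered its start in the NT and NT+TPL lists.

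**Figure D2:**
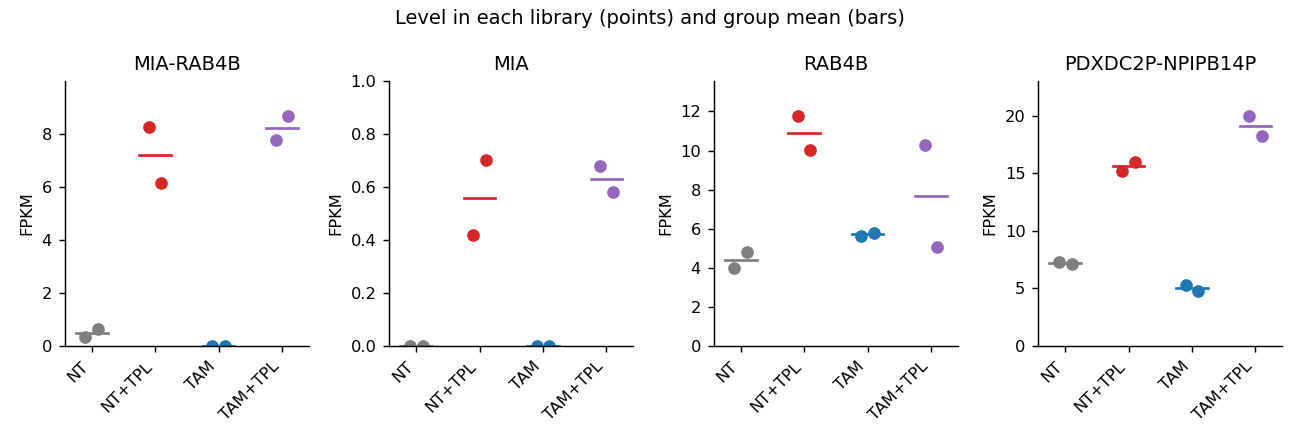
FPKM in each library (points) and group means (bars) for MIA-RAB4B, its neighbours MIA and RAB4B, and PDXDC2P-NPIPB14P, on axes that start at 0 and differ in range. MIA-RAB4B sits at 6.16 to 8.69 in the 4 TPL libraries and at 0.62 or less in the others, while RAB4B overlaps between TAM and TAM+TPL.

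A looser rule kept the size of difference and took adjusted p up to 0.05. It gave 5 members higher (6.94% of 72) and 4 lower (5.56%) in NT cells, against 9.78% and 11.3% of all genes. In TAM cells it gave 6 higher (8.33%) and 4 lower (5.56%), against 9.05% and 10.1%. With no limit on size, 6 members were higher and 5 lower in NT cells, against 17.2% and 19.8% of all genes, and 7 higher and 6 lower in TAM cells, against 14.3% and 18.6%. By this rule, 7 members were past an adjusted p of 0.05 in both cell states, each in the same direction in both. That is 9.72% of the 72, and over all genes 24.2% passed in both states and 24.0% did so in the same direction. MIA-RAB4B, PDXDC2P-NPIPB14P, MROH7-TTC4 and LIMS3-LOC440895 were higher with TPL. INO80B-WBP1, ISY1-RAB43 and NDUFC2-KCTD14 were lower. Several of these loci were picked for the text after their values were seen.

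**Figure D3:**
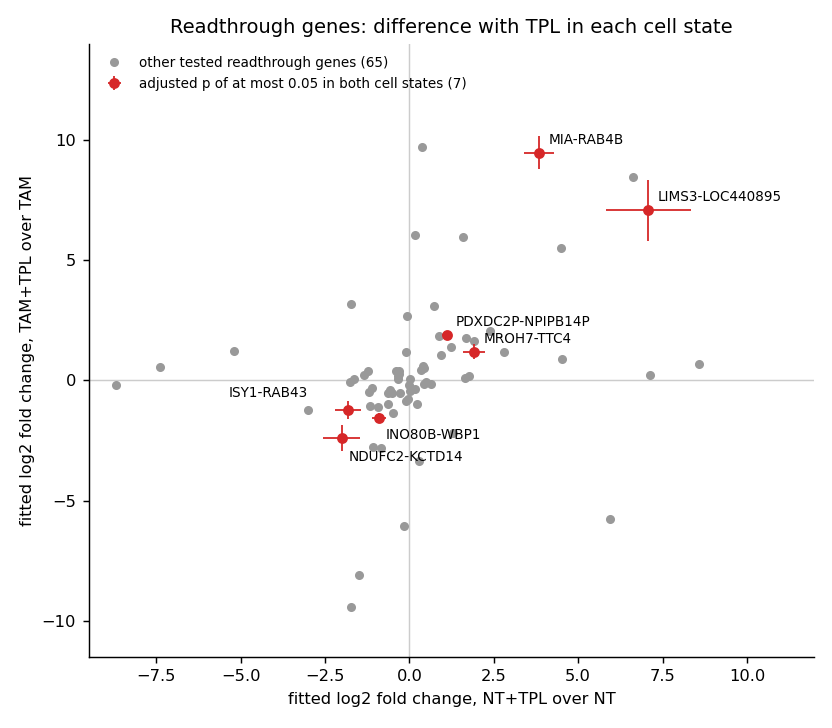
Fitted log2 difference with TPL in NT cells (horizontal) and TAM cells (vertical) for the 72 readthrough genes tested. The 7 past an adjusted p of 0.05 in both are in red with bars of 1 SE and share a sign. The far grey points are rows with libraries at 0, whose fitted values depend on the prior count. The same holds for the red points of MIA-RAB4B in TAM cells and LIMS3-LOC440895 in both.

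INO80B-WBP1 joins a subunit of the INO80 chromatin remodeller to WBP1, a WW-domain binding protein. The row was at 35.5 and 26.01 FPKM (NT), 17.98 and 14.98 (NT+TPL), 27.43 and 22.29 (TAM) and 9.55 and 7.99 (TAM+TPL). Every TPL library was below every DMSO library. The log2 difference was -0.91 (SE 0.21, adjusted p = 0.0149) in NT cells and -1.55 (SE 0.21, adjusted p = 0.00257) in TAM cells.

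WBP1 was at 12.08 and 15.64 FPKM (NT), 64.74 and 74.51 (NT+TPL), 0.0 and 5.89 (TAM) and 33.37 and 23.08 (TAM+TPL), higher in every TPL library than in any DMSO library. Its log2 difference was 2.33 (SE 0.86, adjusted p = 0.0724) without and 3.21 (SE 0.97, adjusted p = 0.0422) after transformation. The joined row held 69.43% to 90.73% of the locus with DMSO and 23.77% to 31.75% with TPL, and the 2 ranges do not meet. The 3 rows together differed by 0.58 (SE 0.16, adjusted p = 0.0294) in NT cells and by -0.13 (SE 0.16, adjusted p = 0.557) in TAM cells. The start of INO80B-WBP1 was in a peak in the TAM+TPL list only, that of WBP1 in the NT, NT+TPL and TAM+TPL lists.

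PPAN-P2RY11 joins PPAN, a factor of ribosome biogenesis, to P2RY11, a receptor for ATP. The row was at 46.04 and 32.24 FPKM (NT), 19.93 and 14.44 (NT+TPL), 26.14 and 19.95 (TAM) and 15.69 and 18.17 (TAM+TPL). All TPL libraries were below all DMSO libraries, though replicate 1 of NT+TPL (19.93) and replicate 2 of TAM (19.95) almost met. The log2 difference was -1.2 (SE 0.24, adjusted p = 0.00951) in NT cells and -0.49 (SE 0.24, adjusted p = 0.154) in TAM cells. PPAN was lower in the same libraries, by a fitted -1.97 (SE 0.30, adjusted p = 0.00352) and -1.75 (SE 0.30, adjusted p = 0.00594).

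P2RY11 was at 1.39 and 0.0 FPKM (NT), 25.48 and 50.99 (NT+TPL), 0.0 and 2.42 (TAM) and 32.53 and 20.39 (TAM+TPL). Its log2 difference was 5.79 (SE 1.31, adjusted p = 0.0145) and 4.39 (SE 1.2, adjusted p = 0.031). Summed, the locus held 1779.0 and 1527.0 counts in NT and 1068.0 and 1233.0 in NT+TPL, a difference of -0.44 (SE 0.18, adjusted p = 0.0918), and -0.19 (SE 0.18, adjusted p = 0.433) in TAM cells. A peak lay on the shared start of PPAN and PPAN-P2RY11 in all 4 lists. On the start of P2RY11 it was listed in NT and TAM, and not with TPL in either.

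MROH7-TTC4 ends in TTC4, a cochaperone of HSP90. The joined row was at 0.69 and 0.89 FPKM (NT), 3.27 and 2.81 (NT+TPL), 1.22 and 0.68 (TAM) and 2.29 and 2.19 (TAM+TPL), higher in every TPL library. Its log2 difference was 1.92 (SE 0.33, adjusted p = 0.00539) and 1.2 (SE 0.32, adjusted p = 0.03). TTC4 was at 13.28 and 14.94, 6.1 and 7.21, 16.01 and 16.87, and 4.45 and 6.7 FPKM in the same order, lower in every TPL library, by fitted differences of -1.13 (SE 0.22, adjusted p = 0.00832) and -1.54 (SE 0.22, adjusted p = 0.00294). The joined row held 9.79% to 18.15% of the locus with DMSO and 47.06% to 56.75% with TPL. In NT cells the summed locus was level, at 0.0087 (SE 0.13, adjusted p = 0.97), and in TAM cells lower, at -0.63 (SE 0.14, adjusted p = 0.0133). The sum was whole in 1 of the 7 libraries with a fractional joined row, so reads may be shared with further rows. No peak lay at the start of MROH7-TTC4 in any list, and the start of TTC4 was in a peak in all 4.

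NDUFC2-KCTD14 joins a subunit of respiratory complex I to KCTD14, a BTB-domain protein. It was at 6.0 and 9.14 FPKM (NT), 2.33 and 1.44 (NT+TPL), 6.13 and 9.1 (TAM) and 2.2 and 0.71 (TAM+TPL), lower in every TPL library. The log2 difference was -2.01 (SE 0.54, adjusted p = 0.0267) and -2.39 (SE 0.55, adjusted p = 0.0172). NDUFC2 was higher by 0.81 (SE 0.21, adjusted p = 0.023) and 0.53 (SE 0.21, adjusted p = 0.0896). KCTD14 was lower with TPL in NT cells, by a fitted -7.2, in the same direction as the joined row. In NT cells the joined row thus moved against NDUFC2 and with KCTD14, and both pairs enter the count of pairs given below. The summed locus differed by 0.38 (SE 0.19, adjusted p = 0.158) and 0.18 (SE 0.19, adjusted p = 0.488). A peak covered the common start of NDUFC2 and NDUFC2-KCTD14 in all 4 lists.

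ISY1-RAB43 joins a splicing factor to a GTPase of the Golgi. Its row was at 4.73 and 3.96 FPKM (NT), 1.82 and 0.66 (NT+TPL), 8.45 and 6.93 (TAM) and 3.45 and 3.38 (TAM+TPL). It was lower with TPL in both states, by a fitted -1.82 (SE 0.39, adjusted p = 0.0123) and -1.22 (SE 0.37, adjusted p = 0.0428). RAB43 was also lower in NT cells (-0.80, SE 0.18, adjusted p = 0.014) but higher in TAM cells (0.93, SE 0.18, adjusted p = 0.0102), and ISY1 reached 0.05 in neither.

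SPECC1L-ADORA2A, which joins a cytoskeletal crosslinker to an adenosine receptor, was at 0.52 and 0.22 FPKM in TAM and at 3.3 and 3.14 in TAM+TPL. The log2 difference of 3.09 (SE 0.44, adjusted p = 0.00296) missed the threshold. In NT cells the values were 0.89 and 0.68 with DMSO and 1.42 and 1.19 with TPL, at 0.72 (SE 0.41, adjusted p = 0.203), and the difference between the states had an adjusted p of 0.248. The level of SPECC1L overlapped with and without TPL in both states.

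**Figure D4:**
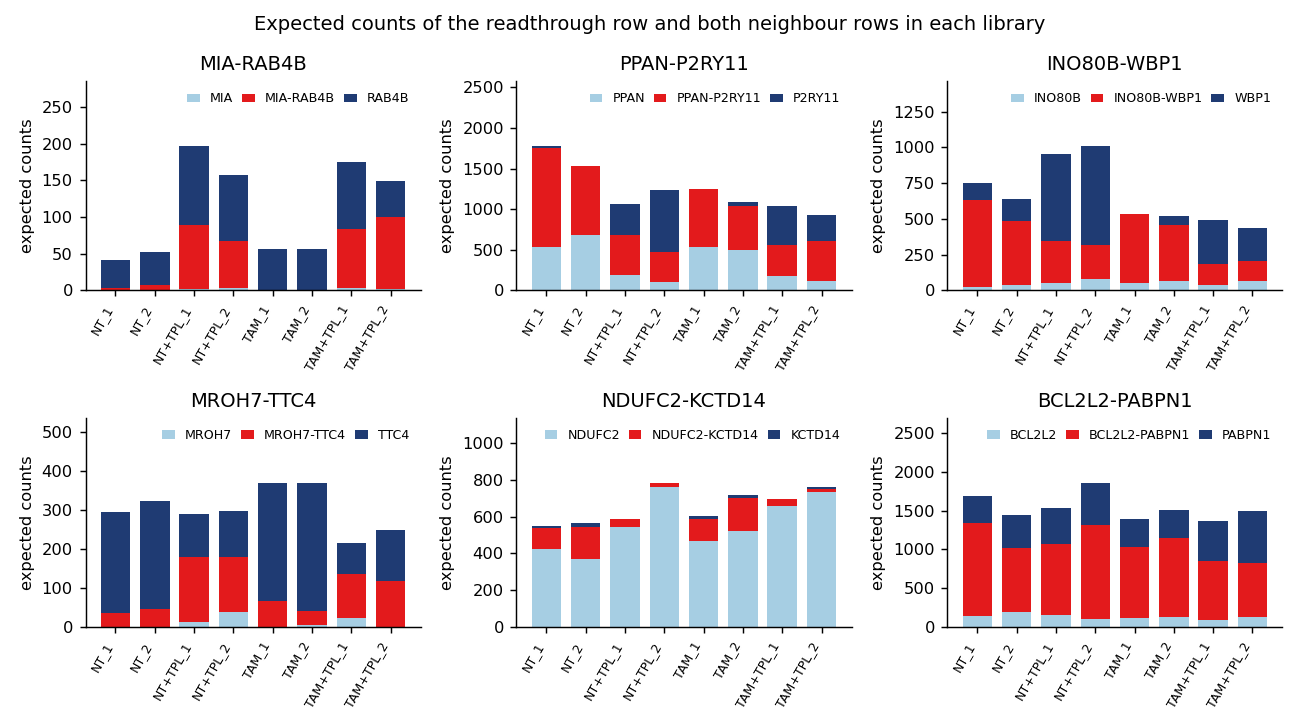
Expected counts (stacked bars, axes from 0) assigned in each of the 8 libraries to the upstream neighbour, the readthrough row and the downstream neighbour of 6 loci. In INO80B-WBP1 and PPAN-P2RY11 the red part is smaller and the dark part larger in the TPL libraries, in MROH7-TTC4 the reverse holds, and BCL2L2-PABPN1 keeps its division more evenly.

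In all, 14 pairs of a readthrough gene and a neighbour were both past an adjusted p of 0.05 with TPL in a cell state. In 10 of the 14 the 2 rows went in opposite directions. Several readthrough genes enter more than once, in both cell states or with both neighbours, so the pairs are not separate cases. No share for other pairs of neighbouring genes is given beside this count. Because the rows of a locus share reads, their differences are not independent of each other. Of the summed loci, 0 of 95 passed the call in NT cells, against 4.19% of the 16803 rows tested after summing, and 1 of 95 in TAM cells, against 3.03%. By edgeR, the only tool run on the sums, 42 (44.2%) and 37 (38.9%) of the 95 had an unadjusted p under 0.05, beside 48.1% and 45.2% of all rows. The locus called in TAM cells was PDXDC2P-NPIPB14P, whose neighbours have no rows to add. The median SE of the summed loci was 0.202 in both cell states, and their median log2 difference was 0.17 and -0.0113. Among the neighbours as single rows, 85 upstream and 81 downstream genes were tested. At an adjusted p of 0.05, 19 upstream neighbours were higher (22.4%) and 15 lower (17.6%) in NT cells, where 17.2% and 19.8% of all genes were. In TAM cells it was 8 (9.41%) and 15 (17.6%), beside 14.3% and 18.6%. Of the downstream neighbours, 13 were higher and 13 lower (16.0% each) in NT cells and 14 and 14 (17.3% each) in TAM cells. The call was passed by TGIF2, a transcriptional repressor and the upstream neighbour in TGIF2-RAB5IF, which fell by 2.84 on the log2 scale (SE 0.19, adjusted p = 0.000328) in TAM cells. TGIF2-RAB5IF itself was above 0 in 3 libraries only, at 4.28, 4.68 and 1.95 FPKM.

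None of the other high rows passed the call. MICOS10-NBL1 joins a protein of mitochondrial cristae to a secreted BMP antagonist, and was at 13.86 and 16.0 FPKM in the NT libraries and 38.32 and 54.92 in NT+TPL (log2 difference 1.63, SE 0.46, adjusted p = 0.0315). In TAM cells its replicates were at 11.25 and 32.39, and those of TAM+TPL at 22.29 and 26.18 lay between them. RPL36A-HNRNPH2 (ribosomal protein and splicing factor) was at 17.28 to 18.28 FPKM in NT and 13.9 to 15.57 in NT+TPL, and at 24.18 to 26.82 in TAM against 17.16 to 19.22 in TAM+TPL, where the difference was -0.54 (SE 0.15, adjusted p = 0.0318). RPL36A by contrast was higher in NT+TPL than in NT, by 0.96 (SE 0.25, adjusted p = 0.0246).

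P2RX5-TAX1BP3 (an ATP-gated channel and a PDZ protein) was at 12.55 to 16.39 FPKM with DMSO and 15.62 to 24.34 with TPL, at adjusted p of 0.19 and 0.135. Both its neighbours were past 0.05 in both states, P2RX5 lower by a fitted -1.70 (SE 0.33) and -1.22 (SE 0.32), TAX1BP3 higher by 0.92 (SE 0.14) and 0.66 (SE 0.14). TMEM256-PLSCR3, which ends in a mitochondrial phospholipid scramblase, was at 12.97 to 26.41 FPKM with DMSO and 11.06 to 17.85 with TPL, at adjusted p of 0.122 and 0.141, while TMEM256 was higher in NT+TPL by 2.01 (SE 0.34, adjusted p = 0.00484).

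ANKHD1-EIF4EBP3 stayed between 10.45 and 15.96 FPKM over the 8 libraries and UBE2F-SCLY between 9.04 and 14.46. Neither reached an adjusted p of 0.05. EIF4EBP3, an inhibitor of translation initiation, was higher in NT+TPL by 0.67 (SE 0.19, adjusted p = 0.0309), and UBE2F, a NEDD8-conjugating enzyme, was lower in TAM+TPL, by a fitted -1.55 (SE 0.23, adjusted p = 0.00321). TNFAIP8L2-SCNM1 was at 8.34 and 0.0 FPKM (NT), 19.63 and 38.95 (NT+TPL), 5.74 and 7.46 (TAM) and 16.65 and 14.35 (TAM+TPL). Every TPL library was above every DMSO library, yet with the split in NT the adjusted p was 0.105 and 0.451. SCNM1, a splicing factor, was lower in NT+TPL, by a fitted -0.87 (SE 0.16, adjusted p = 0.00673).

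The rule for the largest fitted differences mostly named rows in which a library was at 0. RTEL1-TNFRSF6B joins a telomere helicase to the decoy receptor DcR3, and was at 0.99 and 1.22 FPKM in NT and 0.0 in both NT+TPL libraries. By assigned counts it was 16.5-fold lower there, against the floor of 3 counts per library, at an adjusted p of 0.00826. In TAM it was at 2.72 and 0.46 FPKM and in TAM+TPL at 1.78 and 1.14, without a clear difference (adjusted p = 0.878), and the adjusted p of the difference between states was 0.209. In NT cells both neighbours were higher with TPL, RTEL1 by a fitted 1.24 and TNFRSF6B by 1.13, each past an adjusted p of 0.05. DNAAF4-CCPG1, which ends in an ER-phagy receptor, was at 1.98 and 2.35 FPKM in TAM and 0.0 in both TAM+TPL libraries, 28.6-fold lower against the same floor (adjusted p = 0.0179). SENP3-EIF4A1 joins a SUMO protease to a helicase of translation initiation. It was at 0.0 in both TAM libraries and at 2.42 and 3.75 FPKM in TAM+TPL, 36.1-fold higher against the same floor (adjusted p = 0.0498), although the NT libraries were at 0.0 and 3.49. SENP3 was lower with TPL in both states, by a fitted -1.11 (SE 0.15, adjusted p = 0.00193) and -1.30 (SE 0.15, adjusted p = 0.00125).

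In the remaining rows of this kind the replicates disagreed or the reads were few. ZNF816-ZNF321P, a pair of zinc finger genes, was at 1.16 FPKM in NT+TPL replicate 1 and at 4.22 in TAM+TPL replicate 1 and at 0 in the 6 other libraries. CHKB-CPT1B (a choline kinase and a carnitine transferase) was at 2.72 FPKM in NT+TPL replicate 2 and 0.0 in replicate 1, and likewise at 2.38 and 0.0 in TAM+TPL. NEDD8-MDP1 was at 1.54 and 0.0 FPKM in NT and at 0.0 in NT+TPL. HSPE1-MOB4, which starts with a mitochondrial cochaperonin, was at 8.86 and 4.76 FPKM in NT and 1.72 and 0.0 in NT+TPL (adjusted p = 0.0584). IPO11-LRRC70 was at 0.0 and 4.64 FPKM in TAM and 0.0 in TAM+TPL, and RNF103-CHMP3 at 1.67 and 1.8 (TAM) and 0.36 and 0.0 (TAM+TPL) (adjusted p = 0.235). CCDC169-SOHLH2 had 1.49 and 0.0 counts in NT and 11.57 and 14.79 in NT+TPL, at an adjusted p of 0.0106. LIMS3-LOC440895 was listed at 0 in the 4 DMSO libraries and at 0.68, 0.63, 0.86 and 0.46 FPKM in the TPL libraries, or 12.31 to 20.98 counts, with near-identical copies of LIMS3 that may share its reads.

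Between transformed and untransformed cells, 0 of 72 readthrough genes passed the call with DMSO, against 0.649% of all genes, and 0 of 72 with TPL, against 0.596%. An unadjusted p under 0.05 was reached by 12 members with DMSO (19.9% of all genes) and by 13 with TPL (21.3%). DESeq2 called 1 and 2, and limma 0 in each. At an adjusted p of 0.05 there were 3 members with DMSO (4.17%, beside 6.85% of all genes) and 3 with TPL (4.17%, beside 7.03%). With DMSO they were MIA-RAB4B, CCDC169-SOHLH2 and SAA2-SAA4. MIA-RAB4B had 3.61 and 7.0 counts in NT and 0 in both TAM libraries (adjusted p = 0.0165), and with TPL it differed between the cell states by 0.17 (SE 0.36, adjusted p = 0.859). CCDC169-SOHLH2 had 1.49 and 0.0 counts in NT and 15.09 and 11.27 in TAM (4.36, SE 0.94, adjusted p = 0.0399). With TPL they were SAA2-SAA4, RTEL1-TNFRSF6B and INO80B-WBP1. RTEL1-TNFRSF6B was at 0 in both NT+TPL libraries and had 77.93 and 54.38 counts in TAM+TPL (adjusted p = 0.0233). INO80B-WBP1 was lower in TAM+TPL than in NT+TPL, with a log2 difference of -0.93 (SE 0.21, adjusted p = 0.0472).

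SAA2-SAA4, which joins a pair of serum amyloid A genes, was at 15.59 and 9.53 FPKM (NT), 0.93 and 1.24 (TAM), 17.41 and 43.44 (NT+TPL) and 0.0 and 0.51 (TAM+TPL). Every TAM library was below every NT library. The log2 difference was -3.50 (SE 0.76, adjusted p = 0.0409) with DMSO and -6.98 (SE 0.94, adjusted p = 0.00696) with TPL. SAA2, an acute-phase protein, was at 421.02 and 341.07 FPKM in NT and 23.04 and 32.33 in TAM, at -3.56 (SE 0.56, adjusted p = 0.0125), and the joined row held 3.776% to 5.015% of the locus counts in these 4 libraries.

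TNFRSF6B rose in TAM cells, from 45.33 and 33.32 FPKM in NT to 1312.56 and 1295.55 in TAM (log2 difference 5.07, SE 0.37, adjusted p = 0.000633), and with TPL as well (4.96, adjusted p = 0.000641). RTEL1-TNFRSF6B showed 0.54 (SE 0.77, adjusted p = 0.777) between TAM and NT, so that its share of the locus was 9.311% and 14.93% in NT and 1.043% and 0.1822% in TAM. For the difference between the TPL effects in the 2 cell states, 0 of 72 members passed by edgeR, against 0.0% of all genes, with 12 members (and 10.6% of all genes) at an unadjusted p under 0.05. DESeq2 called 1, RTEL1-TNFRSF6B, and limma 0.

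The machinery that ends transcripts was read from a list of 32 genes of 3' end processing and termination. With TPL 3 were higher and 12 lower at an adjusted p of 0.05 in NT cells, and 4 higher and 11 lower in TAM cells, where 17.2% and 19.8%, then 14.3% and 18.6%, of all genes were. The median log2 difference was -0.366 and -0.342. PCF11, the termination factor that binds the polymerase tail, rose from a mean of 5.05 to 16.56 FPKM in NT cells (1.70, SE 0.15, adjusted p = 0.000511) and from 5.11 to 20.66 FPKM in TAM cells (1.97, SE 0.15, adjusted p = 0.000398). FIP1L1, a subunit of the cleavage and polyadenylation factor, fell by 1.39 on the log2 scale in TAM cells (SE 0.14, adjusted p = 0.000895). In NT cells it was at -0.97 (adjusted p = 0.00278).

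Of 15 genes of nonsense-mediated decay, 2 were higher and 4 lower at an adjusted p of 0.05 in each cell state, where 17.2% and 19.8% (NT) and 14.3% and 18.6% (TAM) of all genes were, with a median of -0.303 and -0.317. SMG9, a cofactor of the SMG1 kinase, fell by 3.20 on the log2 scale in NT cells (SE 0.33, adjusted p = 0.000879). Its value was -1.93 (SE 0.31, adjusted p = 0.00459) in TAM cells. EIF4A3 of the exon junction complex was higher with TPL by 1.63 in NT cells (SE 0.20, adjusted p = 0.00153). In TAM cells it was higher by 1.07 (SE 0.20, adjusted p = 0.00772). The helicase UPF1 was higher too, by 0.73 (NT; SE 0.19, adjusted p = 0.0223) and 1.23 (TAM; SE 0.19, adjusted p = 0.0038), and neither gene was past the call. These 2 were picked after their values were seen. Whether these levels bear on the readthrough rows was not tested.

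RNAPII peaks were listed at the starts of many members. Of 93 readthrough starts placed on the genome, 56 were inside a peak in the NT list (60.2%, 95% Wilson interval 50.05% to 69.57%), 46 in NT+TPL (49.5%, 39.53% to 59.44%), 46 in TAM and 45 in TAM+TPL (48.4%, 38.5% to 58.4%). For the upstream neighbours it was 68 of 103 in NT and 54 in NT+TPL, and for the downstream neighbours 55 of 102 and 44. Over all 19894 protein-coding genes the shares were 47.7%, 38.2%, 42.1% and 37.4% in the 4 lists. The peak names of the TAM list carry another cutoff than those of the other lists, so a count in TAM cannot be set against the others like for like. Most readthrough genes share their start with X, so that a peak there belongs to both.

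**Figure D5:**
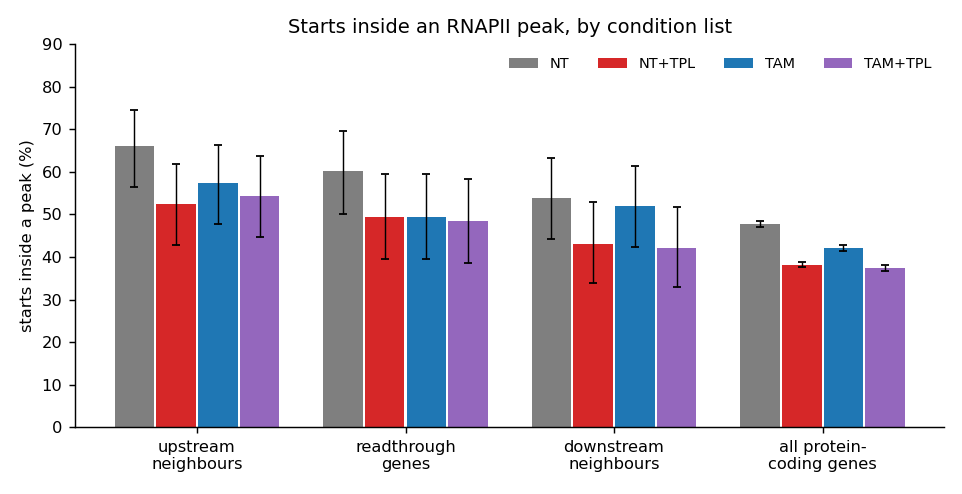
Percent of starts inside an RNAPII peak (bars from 0, with 95% Wilson intervals) for upstream neighbours, readthrough genes, downstream neighbours and all protein-coding genes, in the 4 condition lists. In all 4 sets the NT bar is the highest, and the intervals of the readthrough genes (38.5% to 69.57% over the lists) overlap each other.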

How the data were processed

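Processed files of 8 RNA-seq libraries and 4 lists of RNAPII peaks were used. The authors aligned poly-A reads to reference genes with Bowtie2 and deposited RSEM expected counts and FPKM for each gene. The deposited peak lists hold positions from MACS 1.4.2 on hg19, without scores, and whether replicate 2 entered them is not given in the sources used here. Expected counts were rounded and fitted in edgeR 4.0.16 as 1 model of 4 groups (TMM, filterByExpr, quasi-likelihood F-test, SE as the log2 difference over the root of F), with Benjamini-Hochberg adjustment over 16948 genes. DESeq2 1.42.0 and limma 3.58.1 on log2(FPKM + 1) and log2(FPKM + 0.1) were alternatives. Summed loci were fitted again as 1 row each, joining loci that share a gene. The fits were checked on simulated counts. The labels call the replicates biological, and p-values measure the spread between these libraries.

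Gene IDs were matched to RefSeq names (21077 by ID, 2384 by accession, 143 unmatched), and GENCODE v44 on GRCh37 gave positions and sequences. Intervals cover counting error only. The text names members past the call, the 10 highest by mean FPKM, the 3 largest fitted rises and falls per TPL comparison at 0.5 FPKM or more, their neighbours, and genes of the termination and decay lists past the call. MROH7-TTC4, NDUFC2-KCTD14, ISY1-RAB43, SPECC1L-ADORA2A, TGIF2-RAB5IF, LIMS3-LOC440895, SAA2-SAA4 and FKBP1A-SDCBP2 were added after their values were seen. Members and lists were chosen with earlier results of these data known.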

Additional observations from a re-analysis of the deposited data

Results flagged for a closer look

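SDCBP2, the gene of a syntenin-like PDZ protein and the downstream neighbour in FKBP1A-SDCBP2, was singled out because the effect of TPL differed between the cell states. It was at 30.88 and 29.67 FPKM (NT), 16.44 and 11.96 (NT+TPL), 61.32 and 57.18 (TAM) and 120.58 and 133.55 (TAM+TPL). The TPL libraries were lower than the DMSO libraries in NT cells (log2 difference -1.10, SE 0.16, adjusted p = 0.00297) and higher in TAM cells (1.05, SE 0.15, adjusted p = 0.00324), and the difference between them was 2.15 (SE 0.22), with an edgeR adjusted p of 0.0378. The joined row FKBP1A-SDCBP2 held at most 0.7036% of the locus counts in any library, and the 4 groups of that row overlapped.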

How the results depend on the processing

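The number of readthrough genes called with TPL in TAM cells was the least stable. From 2 higher it went to 1 with GAPDH as the reference, 1 with the rows summed per locus, 0 with a replicate block, and 0 to 2 when libraries were left out in turn. Leaving out NT+TPL replicate 1 kept 1 call, NT+TPL replicate 2 kept 2, and each other library left 0. The cause was not tested. Taking adjusted p up to 0.05 gave 5 higher and 4 lower in NT cells, 6 and 4 in TAM cells, 3 between TAM and NT, and 2 between TAM+TPL and NT+TPL. DESeq2 gave 3 higher and 3 lower in NT cells, 3 lower in TAM cells, and 1, 2 and 1 for TAM against NT, the same with TPL, and the difference of the TPL effects. In NT cells 1 was higher under upper quartile scaling, with at least 10 counts in every library, and with limma at either pseudocount, and 1 was lower in TAM cells with at least 10 counts. Summed loci gave 1 call between TAM and NT and 1 with TPL. No share of all genes is given for DESeq2, limma or the other scalings and filters, so those counts have no background beside them.

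Replicate numbers did not pair the libraries, since deviations of same-numbered libraries correlated at -0.135 to 0.0501 over genes, and the block served only as an alternative. Upper quartile scaling moved the median of all genes to 0.306 in NT and 0.288 in TAM cells, and GAPDH to -0.257 and -0.0651. Against GAPDH, the sign turned for BCL2L2-PABPN1 (-0.15), RNF103-CHMP3 (-0.019) and SENP3-EIF4A1 (-0.11) in NT cells and for MICOS10-NBL1 (-0.014) and ANKHD1-EIF4EBP3 (-0.054) in TAM cells. In TAM cells RTEL1-TNFRSF6B turned to 0.066 (upper quartile), 0.055 (replicate block), 0.066 (limma + 1, with or without the filter) and 0.28 (limma + 0.1), and CHKB-CPT1B to -2.33 (replicate block) and -0.66 (limma + 0.1).

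With single libraries left out, fitted differences ranged across 0 in 8 cases: BCL2L2-PABPN1 in NT cells -0.076 to 0.47, MICOS10-NBL1 in TAM cells -0.47 to 1.06, ANKHD1-EIF4EBP3 in TAM cells -0.12 to 0.28, RTEL1-TNFRSF6B in TAM cells -0.94 to 1.57, NEDD8-MDP1 in TAM cells -1.65 to 6.92, CHKB-CPT1B in TAM cells -7.66 to 1.67, RNF103-CHMP3 in NT cells -5.99 to 6.29, SENP3-EIF4A1 in NT cells -0.62 to 9.30.

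A window of 1000 bases raised the TAM list's share of readthrough starts with a peak to 63.44%. As shares of summed FPKM, the median share of the joined row was 5.17% in NT, 7.06% in NT+TPL and 7.18% in TAM+TPL.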
